A study of Mus musculus with 9 samples.

Results

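Exons longer than 27 bases whose length is not a multiple of 3 were examined in hearts of mice carrying a frameshift in Rbm20, a splicing regulator of heart muscle genes. Leaving out such an exon, or adding one, shifts the reading frame of the messenger RNA downstream of it. The table held inclusion and exclusion read counts for 480017 exonic parts of 54660 gene identifiers. An exonic part is a stretch of exon cut so that it overlaps no other part of its gene. From these, 2961 parts in 2153 gene identifiers were kept by rule. They lay inside the gene with no part touching them, were not in Ttn, had at least 10 reads in each of the 9 libraries, and had a mean PSI between 0.05 and 0.95. PSI (percent spliced in, given here as a fraction) is the share of reads that include the part, scaled for length. Reads, length and mean PSI therefore chose these exons, and their intermediate level is not a result. At the edges, Sqor part 8 at a mean PSI of 0.05003 was inside and Ptpa part 20 at 0.04992 outside. Golt1b part 4 at 0.9499 was inside and Naxd part 21 at 0.9502 outside.

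The libraries came from hearts of 12-week-old mice, with 3 homozygous, 3 heterozygous and 3 wild-type libraries. The knock-in allele was made with CRISPR/Cas and lacks 2 bases of Rbm20, which shifts the reading frame (p.Q374Rfs). Homozygous mice carry the allele on both chromosomes, heterozygous mice on 1 chromosome, and wild-type mice on neither. The labels do not say whether each library is a separate mouse, so the p-values measure the spread between libraries. They also name no chamber, sex or strain.

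RBM20 binds pre-mRNA in heart muscle and mostly represses the inclusion of exons in genes such as titin and CaM kinase II delta. A shifted frame usually runs into an early stop codon. When that stop lies well upstream of the last exon junction, nonsense-mediated decay (NMD) tends to degrade the transcript, so an abnormal frame is often seen at a lower level than it is made. Many splicing regulators, among them SR proteins and hnRNPs, carry so-called poison exons that trigger NMD when included and limit the protein's own level.

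The coding exons whose inclusion passed the threshold, and a pair of short alternative exons of Rbfox2, are shown because they carry whole codons plus 1 or 2 bases. Capitals mark the bases of a codon that is shared with a neighbouring exon. All sequences are from GENCODE M21 transcripts, 5′ to 3′ on the transcript strand, and the coordinates are those of the deposited table (GRCm39). Aox1 part 26 lies at chr1:58112337-58112433 (+), Ccdc173 part 5 at chr2:69608404-69608560 (−), Tstd2 part 16 at chr4:46133382-46133655 (−) and Stard9 part 8 at chr2:120498484-120498596 (+). The Rbfox2 exons lie at chr15:76976012-76976054 (−) and chr15:76978651-76978690 (−).
Aox1 part 26: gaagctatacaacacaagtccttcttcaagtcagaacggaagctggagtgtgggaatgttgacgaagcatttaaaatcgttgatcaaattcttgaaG
Ccdc173 part 5: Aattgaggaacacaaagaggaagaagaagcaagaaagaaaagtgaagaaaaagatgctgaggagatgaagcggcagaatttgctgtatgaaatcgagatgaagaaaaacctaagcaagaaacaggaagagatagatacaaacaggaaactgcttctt
Tstd2 part 16: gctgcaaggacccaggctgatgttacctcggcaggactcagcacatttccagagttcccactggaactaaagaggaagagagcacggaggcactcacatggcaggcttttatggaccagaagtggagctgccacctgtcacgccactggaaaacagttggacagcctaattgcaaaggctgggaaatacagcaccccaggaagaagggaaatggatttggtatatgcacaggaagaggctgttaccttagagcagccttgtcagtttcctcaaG
Stard9 part 8: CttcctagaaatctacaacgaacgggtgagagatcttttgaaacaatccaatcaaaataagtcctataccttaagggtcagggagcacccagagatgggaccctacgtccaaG
Rbfox2 part 15: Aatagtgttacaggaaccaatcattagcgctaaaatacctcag
Rbfox2 part 16: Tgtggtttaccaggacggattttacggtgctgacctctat

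Exons that bring an early stop are shown for 4 RNA-binding proteins. For Hnrnpl, Hnrnpll and Rbm39 the exon is printed from its start through the in-frame stop codon, in capitals. The 46-base exon of Rbm20 holds no in-frame stop. Its capitals mark the bases shared with neighbouring codons, and the shifted frame stops after it. They lie at chr7:28516760-28516829 (+), chr17:80352369-80352451 (−), chr2:156018323-156018377 (−) and chr19:53840785-53840830 (+).
Hnrnpl part 22: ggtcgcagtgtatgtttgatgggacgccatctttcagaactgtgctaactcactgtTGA
Hnrnpll part 13: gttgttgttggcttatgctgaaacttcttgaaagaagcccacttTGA
Rbm39 part 40: agctcaaagtgcttcaTAA
Rbm20 part 15: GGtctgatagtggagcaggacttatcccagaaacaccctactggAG

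Inclusion reads summed to 297 M to 323 M a library, and the median exon of the set had 90 to 133 reads a library. Rbm20 had 66.6, 52.4 and 55.2 CPM (counts scaled to library size) in homozygous libraries, 86.3, 69.0 and 90.9 CPM in heterozygous libraries, and 106, 105 and 133 CPM in wild-type libraries. The 3 groups did not overlap, and Rbm20 was lower in homozygous than in wild-type libraries (log2 fold change −0.98, SE 0.14, edgeR quasi-likelihood adjusted p = 0.00430). The summed CPM of 7 cardiomyocyte markers was 62826 to 75484 in homozygous libraries, 48902 to 59849 in heterozygous libraries and 51244 to 60238 in wild-type libraries. One of the 7 was called higher in homozygous than in wild-type libraries. The 4 atrial markers summed to 404.9 to 553 CPM in homozygous libraries, 56.4 to 2091 CPM in heterozygous libraries and 103 to 178 CPM in wild-type libraries, so every homozygous library was above every wild-type one, with none of the 4 called. No marker found was at 0 in all libraries. The part of these marker levels in the results below was not tested, and in heart tissue fewer cells of a type cannot be told apart from less RNA per cell.

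Some libraries stood apart through exclusion reads counted at every part of a gene. Their number was taken as the lowest exclusion count among the gene's parts in each library. The junctions themselves were not seen, so it is an upper limit on reads that jump the whole gene. In 155 of the 2961 exons (5.23%), in 75 genes, such whole-gene reads made up at least 50% of the exclusion reads. Reads that jump a whole gene measure no choice between neighbouring exons. The same was true of 4.63% of frame-keeping exons chosen by the same rule. The chromosome 11 neighbours Rnd2, Nbr1 and Dhx8 each had 9671 such reads, with equal counts library by library. These reads numbered 947, 1242 and 846 in homozygous libraries, 256, 2422 and 5 in heterozygous libraries, and 1696, 1445 and 812 in wild-type libraries. The chromosome 14 genes Acin1, Slc7a8 and Homez each had 1798 such reads, all in homozygous library 3. Acin1, a protein deposited with the exon junction complex, had a PSI of 1, 1 and 0.108 in homozygous libraries at its 89-base part 59, and 1 in each heterozygous and wild-type library. Of 57 exons whose PSI ranged by at least 0.8 over the 9 libraries, 32 were of this kind.

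The label "cassette exon" was checked against GENCODE M21, in which 2838 of the 2961 exons were found by gene identifier, length and position. There, 2028 were internal exons, but 576 were annotated only as a first exon and 234 only as a last exon. For these 810 exons, exclusion can mean the use of another promoter or another 3′ end rather than skipping. Wholly coding exons formed the largest class, with 1249 members. A further 132 were internal exons of transcripts annotated as NMD targets and carried the coding frame up to or into the stop. There were 218 exons in untranslated regions, 136 that held a start or stop of coding sequence, 118 in noncoding transcripts of coding genes, and 148 in noncoding genes. Lengths left a remainder of 1 in 1563 exons and of 2 in 1398. The median length was 124 bases.

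Inclusion differed between these classes. Wholly coding frame-shifting exons had a median mean PSI of 0.875, and 93 of the 1249 were below 0.2. Exons of NMD transcripts had a median of 0.123, with 101 of the 132 below 0.2. Exons of noncoding transcripts of coding genes had a median of 0.103, and exons annotated only as first or last had a median of 0.144. Frame-keeping coding exons, 1616 in number, had a median of 0.721, lower than that of the frame-shifting coding exons. These medians describe the sets as chosen by mean PSI and were given no test.

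**Figure D1:**
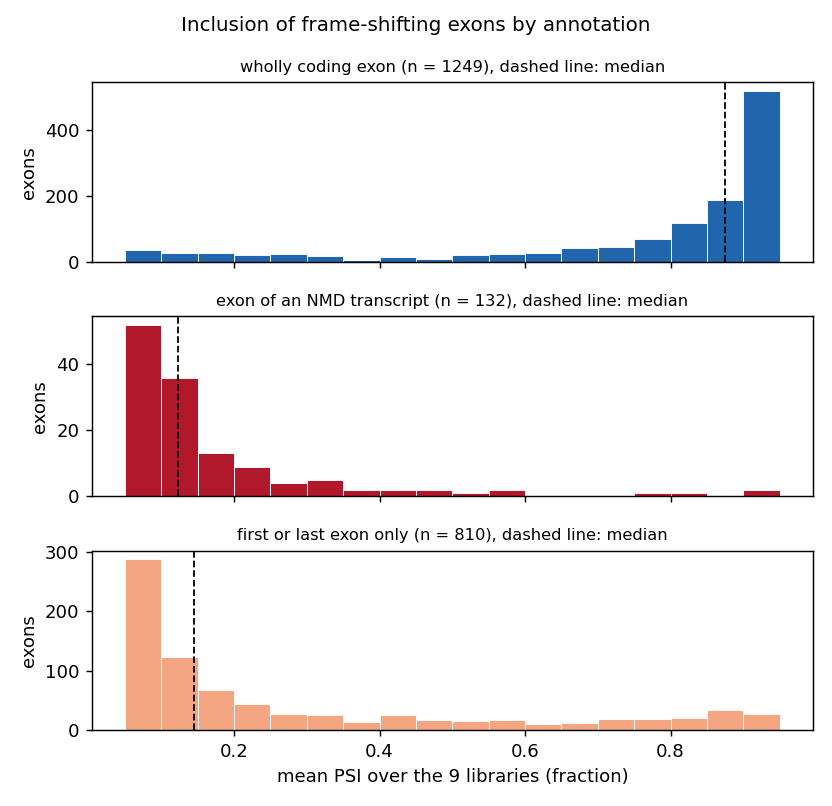
Histograms of mean PSI over the 9 libraries (x axis, fraction) for wholly coding exons, exons of NMD transcripts and exons annotated only as first or last; the y axis counts exons and the dashed line is the median. Coding exons pile up at high PSI (median 0.875), whereas NMD exons (median 0.123) and first or last exons (median 0.144) pile up at low PSI.

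The effect of leaving out each coding exon was read from the annotated frame. For 961 of the 1249, skipping gave a stop more than 50 bases before the last exon junction, the usual mark of an NMD target. Their median PSI was 0.887, and 69.9% had a PSI over 0.8. For another 277 exons, skipping put the new stop within 50 bases of the last junction or after it. Their median PSI was 0.836, with 55.2% over 0.8. The remaining 11 exons had no stop in the transcript without them, and their median PSI was 0.115. Of the 132 exons of NMD transcripts, 100 held the stop themselves and in 32 it followed later. The coding sequence of 87 of them was annotated from an ATG.

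Homozygous and wild-type libraries differed past the threshold in 4 of the 2961 exons (limma, adjusted p under 0.05 over all 55648 parts fitted, and a PSI difference of at least 0.1). This is 0.135% of the exons, against 0.413% of all parts fitted, or 0.148% without Ttn. Aox1, Ccdc173 and Tstd2 exons rose in homozygous hearts, and a Gm26782 exon fell, where 0.376% of all parts rose and 0.0377% fell. Shares of all parts by direction, here and below, include Ttn, which the set leaves out. An unadjusted p below 0.05 was reached by 251 exons (8.48%, against 7.69% of all parts). The groups did not overlap in 373 exons, 211 higher and 162 lower in homozygous libraries, which is 12.6% against 12.4% of all parts. In 146 of these the means also differed by at least 0.1, which is 4.93% against 3.65%. Of these, 89 were higher and 57 lower in homozygous libraries, where 2.41% of all parts were higher and 1.23% lower. The median difference was 0.00343 in these exons and 0.00346 over all parts. The range of mean PSI that chose these exons was not applied to all parts fitted. Among the 2504 frame-keeping exons, to which it was applied, the groups did not overlap in 396 (15.8%). In 155 of those (6.19%) the means also differed by at least 0.1. Of the frame-keeping exons, 9 were called, and the difference from the 4 was not tested. The count of 4 became 9 without homozygous library 1, 10 without homozygous library 2, and 2 without heterozygous library 1, heterozygous library 3 or wild-type library 3.

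Heterozygous and wild-type libraries differed past the threshold in 2 exons, the same Aox1 and Ccdc173 exons, both higher in heterozygous hearts. The share of all parts called was 0.0755%, with 0.0737% called higher and 0.0018% lower, or 0.0271% in all without Ttn. An unadjusted p below 0.05 was reached by 147 exons (4.96%, against 4.04%). The groups did not overlap in 283 exons (9.56%, against 8.47% of all parts), 141 higher and 142 lower in heterozygous libraries. With a difference of at least 0.1 there were 97 (3.28%, against 2.15%), 58 of them higher in heterozygous libraries, where 1.15% of all parts were. For frame-keeping exons the share without overlap and with that difference was 3.23%. Homozygous and heterozygous libraries differed past the threshold in 2 exons (0.0675%), with Tstd2 higher and Stard9 lower in homozygous hearts. Of all parts 0.264% were called, 0.241% higher and 0.0234% lower, or 0.0669% in all without Ttn. The groups did not overlap in 329 exons (11.1%, against 11.2%). In 131 of these the difference was at least 0.1 (4.42%, against 2.98%, and 3.71% of frame-keeping exons). Of the 131, 75 were higher in homozygous libraries, where 1.99% of all parts were. An unadjusted p below 0.05 was reached by 236 exons (7.97%, against 6.93%). Leaving out 1 library gave 0 to 3 calls in heterozygous against wild type, with 0 without heterozygous library 1 and 1 without heterozygous library 2 or any homozygous library. In homozygous against heterozygous it gave 7 without homozygous library 2, 5 without homozygous library 3, 0 without heterozygous library 2 or wild-type library 3, and 1 without any other library but homozygous library 1. The 3 comparisons share libraries and are not independent of one another.

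**Figure D2:**
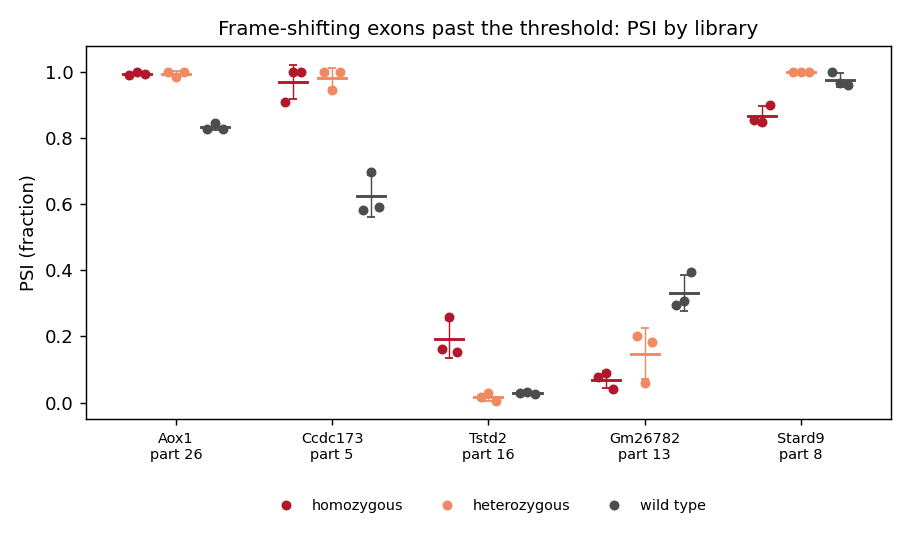
PSI (y axis, fraction) of the exons called in any comparison, 1 point per library, with bars for the mean and SD of the 3 libraries of each genotype. In Aox1 and Ccdc173 the homozygous and heterozygous libraries lie together above wild type, in Tstd2 only the homozygous libraries exceed 0.1, in Gm26782 all homozygous libraries are below 0.1, and in Stard9 the homozygous libraries lie between 0.850 and 0.901.

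Aox1 encodes aldehyde oxidase, a molybdenum enzyme that oxidises aldehydes and retinal. The PSI of its 97-base coding part 26 was 0.992, 1 and 0.994 in homozygous libraries, 1, 0.987 and 1 in heterozygous libraries, and 0.829, 0.847 and 0.830 in wild-type libraries. Nearly all reads included the exon in the libraries carrying the allele, and all 3 wild-type libraries were lower, with no overlap. Homozygous minus wild type was 0.160 (SE 0.0156, limma adjusted p = 0.00153) and heterozygous minus wild type was 0.160 (adjusted p = 0.00891), from 213 to 440 reads a library. Homozygous minus heterozygous was −0.000374 (SE 0.0156). In the annotation, skipping the exon gives a stop more than 50 bases before the last junction. The next 3 exonic parts were also lowest in wild type without being called. Part 27 had a PSI of 1, 0.970 and 1 in homozygous libraries and 0.933, 0.916 and 0.907 in wild-type libraries (adjusted p = 0.179). Aox1 lies in a cluster of related oxidase genes, and how reads common to them were assigned was not tested. The heterozygous call was lost without heterozygous library 1 (adjusted p = 0.0572).

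Ccdc173 encodes a coiled-coil protein of the axoneme, the core of motile cilia. Its 157-base coding part 5 had a PSI of 0.911, 1 and 1 in homozygous libraries, 1, 0.947 and 1 in heterozygous libraries, and 0.582, 0.697 and 0.593 in wild-type libraries. All wild-type libraries were below all others. Homozygous minus wild type was 0.346 (SE 0.0410, limma adjusted p = 0.00643) and heterozygous minus wild type was 0.358 (adjusted p = 0.0233). The coverage was 15 to 49 reads a library, so each value is coarse. Neighbouring exons were low in wild type as well. The 140-base part 4, also frame-shifting, had a PSI of 0.941, 0.943 and 0.875 in homozygous libraries, 1, 0.885 and 1 in heterozygous libraries, and 0.449, 0.686 and 0.288 in wild-type libraries. Its groups did not overlap either, but its adjusted p was 0.142. Parts 7 and 9, which fall outside the set, were called, with differences of 0.403 (adjusted p = 0.0115) and 0.559 (adjusted p = 0.000601). The homozygous call on part 5 was lost without homozygous library 3 (adjusted p = 0.0520) or wild-type library 3 (adjusted p = 0.0516), and the heterozygous call without any 1 library other than wild-type library 2.

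Tstd2 encodes a protein with a rhodanese-like sulfurtransferase domain. Its 274-base part 16 had a PSI of 0.163, 0.260 and 0.154 in homozygous libraries, 0.0181, 0.0304 and 0.00499 in heterozygous libraries, and 0.0296, 0.0323 and 0.0273 in wild-type libraries. Only homozygous libraries were above 0.1, and the ranges of heterozygous and wild-type libraries overlapped. Part 22, outside the set, was also highest in homozygous libraries, at 0.246, 0.233 and 0.329. It had 0.0382, 0.182 and 0.109 in wild-type libraries (difference 0.160, limma adjusted p = 0.294). Of the other fitted parts of the gene, only part 19 was lower on average in homozygous than in wild-type libraries (−0.0520). Homozygous minus wild type was 0.162 (SE 0.0262, limma adjusted p = 0.0486) and homozygous minus heterozygous was 0.174 (adjusted p = 0.0462), from 42 to 71 reads a library. In the annotation, the transcript without the exon held no in-frame stop, so no effect of skipping on the protein can be read from it. Both calls lie close to the threshold. Each was lost without any 1 library other than homozygous library 2.

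Gm26782 is annotated as a long noncoding RNA antisense to other genes. Its 362-base part 13, annotated as a last exon, lies at chr14:51109930-51110291 (+). The PSI was 0.0783, 0.0882 and 0.0398 in homozygous libraries, 0.202, 0.0585 and 0.182 in heterozygous libraries, and 0.295, 0.307 and 0.394 in wild-type libraries. Wild-type libraries were highest with no overlap, and 1 heterozygous library lay within the homozygous range. Homozygous minus wild type was −0.263 (SE 0.0427, limma adjusted p = 0.0497) at 34 to 146 reads a library. The call was lost without any 1 library other than heterozygous library 2. Part 19 of the same gene, outside the set, was also lower (difference −0.413, adjusted p = 0.0162). The parts between them, 14 to 18, were lower too, with differences of −0.204 to −0.331. In each of these, homozygous and wild-type libraries did not overlap, and none was called. The remaining fitted parts of the gene were lower on average as well, so the difference was not confined to part 13. The sources used here do not state whether strand was used in counting, so reads of this gene and of genes on the opposite strand may be mixed.

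Stard9 encodes a kinesin-family motor protein found at centrosomes in human cells. Its 113-base coding part 8 had a PSI of 0.856, 0.850 and 0.901 in homozygous libraries, 1, 1 and 1 in heterozygous libraries, and 1, 0.968 and 0.961 in wild-type libraries. Homozygous libraries were lowest with no overlap. Homozygous minus heterozygous was −0.131 (SE 0.0197, limma adjusted p = 0.0462), while homozygous minus wild type was −0.108 with an adjusted p of 0.0920. The coverage was 33 to 57 reads a library, and the call was lost without any 1 library other than homozygous library 3 or wild-type library 1.

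The library names carry numbers in a lower and a higher run, and all homozygous libraries are in the lower one with wild-type library 1. Against that single wild-type library, the homozygous mean differed by 0.166 in Aox1, 0.388 in Ccdc173, 0.162 in Tstd2, −0.226 in Gm26782 and −0.131 in Stard9. The labels do not say what the numbers stand for. The higher run holds no homozygous library. With the run as a covariate, the homozygous calls on Aox1 and Ccdc173 held, and those on Tstd2 (adjusted p = 0.318), Gm26782 (0.334) and Stard9 (0.0958) were lost. By edgeR on the inclusion and exclusion reads, Aox1 passed in homozygous against wild type and no other exon of the set was called in any comparison, with an adjusted p of 0.506 for Ccdc173, 0.361 for Tstd2, 0.348 for Gm26782 and 0.802 for Stard9.

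None of the genes of the 5 called exons passed the expression test in any comparison, measured on all other parts of the gene (edgeR). Aox1 had 54.8, 42.0 and 42.3 CPM in homozygous libraries, 61.6, 34.4 and 35.2 CPM in heterozygous libraries, and 43.6, 25.3 and 31.7 CPM in wild-type libraries. These ranges overlapped, with a log2 fold change of 0.47 in homozygous over wild-type libraries (SE 0.24, adjusted p = 0.284). Without the filter on low counts, Aox1 passed at an adjusted p of 0.0293. Ccdc173 averaged 0.797 ± 0.204 CPM in homozygous libraries, 0.662 ± 0.137 CPM in heterozygous libraries and 0.568 ± 0.118 CPM in wild-type libraries (SD, n = 3 each; log2 fold change of homozygous over wild type 0.49, edgeR adjusted p = 0.291). Tstd2 averaged 78.6 ± 5.08, 71.7 ± 1.88 and 73.1 ± 6.19 CPM in the same groups (log2 fold change 0.10, adjusted p = 0.523). Gm26782 averaged 44.0 ± 6.29, 45.9 ± 6.15 and 53.9 ± 1.68 CPM (−0.29, adjusted p = 0.187), and Stard9 averaged 21.01 ± 2.48, 19.2 ± 2.50 and 21.1 ± 0.739 CPM (−0.01, adjusted p = 0.985).

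Larger differences without overlap were found in exons that did not pass the test. Vamp1 encodes a SNARE protein of vesicle fusion. Its 1274-base part 12, annotated as a last exon, had a PSI of 0.937, 0.90 and 1 in homozygous libraries, 0.896, 0.885 and 1 in heterozygous libraries, and 0.686, 0.324 and 0.397 in wild-type libraries. Wild type was lowest throughout, as in Aox1, with a homozygous minus wild-type difference of 0.477 (limma adjusted p = 0.0920). Without wild-type library 1 the adjusted p was 0.00509. Lcorl encodes a transcriptional regulator. Its 94-base part 9 had a PSI of 0.722, 0.363 and 0.498 in homozygous libraries, 1, 1 and 0.726 in heterozygous libraries, and 0.976, 1 and 0.959 in wild-type libraries. The homozygous libraries were lowest and widely spread, and the difference of −0.450 had an adjusted p of 0.20, from 11 to 67 reads a library. Acad10 (an acyl-CoA dehydrogenase) part 9 had a PSI of 0.815, 0.790 and 0.918 in homozygous libraries, 0.794, 1 and 0.137 in heterozygous libraries, and 0.650, 0.129 and 0.0971 in wild-type libraries. Its heterozygous libraries covered both ends of the scale (homozygous minus wild type 0.549, adjusted p = 0.608). Hrh2, the histamine H2 receptor, had a PSI of 0.628, 0.586 and 0.155 in homozygous libraries, 0.723, 0.475 and 0.191 in heterozygous libraries, and 1, 0.662 and 1 in wild-type libraries at its last exon, part 4 (difference −0.431, adjusted p = 0.605). That exon had 17 to 56 reads a library.

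Several of the largest differences were in near-identical neighbours, whose reads may be split between copies, or had many whole-gene reads as defined above. Ces1d and Ces1e encode carboxylesterases that hydrolyse lipid esters. Part 16 of Ces1d had a PSI of 0.758, 1 and 1 in homozygous libraries, 0.786, 1 and 0.819 in heterozygous libraries, and 0.509, 0.512 and 0.585 in wild-type libraries (homozygous minus wild type 0.384, limma adjusted p = 0.158). Part 5 of Ces1e had a PSI of 0.0211, 1 and 0.875 in homozygous libraries, 0.0546, 1 and 0.0308 in heterozygous libraries, and 0.00900, 0.0124 and 0.0135 in wild-type libraries (difference 0.620, adjusted p = 0.691). High values in Ces1e came from 3 of the 9 libraries, and the share of its exclusion reads counted as whole-gene was 0.622. Part 6 of 2210418O10Rik, in a zinc-finger cluster of chromosome 2, had a PSI of 1, 1 and 0.236 in homozygous libraries, 0.0783, 0.0669 and 0.164 in heterozygous libraries, and 0.0808, 0.115 and 0.138 in wild-type libraries. Its difference of 0.634 had an adjusted p of 0.374, and 0.000172 without homozygous library 3. Zfp968-ps part 6 in the same cluster differed by 0.402 (adjusted p = 0.425), and the share of its exclusion reads counted as whole-gene was 0.821.

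Heterozygous and wild-type libraries were furthest apart in Slc28a2b, a nucleoside transporter. Its 95-base part 6 had a PSI of 0.619, 0.753 and 0.684 in homozygous libraries, 0.129, 0.528 and 0.127 in heterozygous libraries, and 1, 0.843 and 0.694 in wild-type libraries. Heterozygous libraries were lowest and did not overlap either other group (heterozygous minus wild type −0.584, limma adjusted p = 0.354). Part 7 of Pramel12, 65 bases in an untranslated region, had a PSI of 0.317, 0.222 and 0.410 in homozygous libraries, 0.276, 0.211 and 0.266 in heterozygous libraries, and 0.635, 0.539 and 0.545 in wild-type libraries. Wild type was highest (heterozygous minus wild type −0.322, adjusted p = 0.198). The others named by the same rule were Gm14288 (−0.506), Gm13270 (0.376), Gm14322 (0.353) and Gm13481 (0.300), with adjusted p-values of 0.968, 0.968, 0.647 and 0.968. Gm13481 was itself higher in homozygous than in wild-type libraries (log2 fold change 1.04, edgeR adjusted p = 0.0325).

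Between homozygous and heterozygous libraries, Gsap and Npr3 were among the exons furthest apart. Gsap encodes a protein that promotes gamma-secretase activity. Its 95-base part 40 had a PSI of 0.698, 0.725 and 0.646 in homozygous libraries, 1, 1 and 1 in heterozygous libraries, and 0.835, 1 and 0.798 in wild-type libraries. Homozygous libraries were lowest (homozygous minus heterozygous −0.310, limma adjusted p = 0.0736), and the exon passed without wild-type library 2 (adjusted p = 0.00755). At 12 to 32 reads a library, each value is coarse. Npr3 encodes the clearance receptor for natriuretic peptides. Its 104-base part 16 had a PSI of 0.195, 0.540 and 0.201 in homozygous libraries, 0.841, 0.804 and 0.604 in heterozygous libraries, and 0.701, 0.692 and 0.569 in wild-type libraries, from 10 to 36 reads a library. Homozygous libraries were lowest again (difference −0.438, adjusted p = 0.355). Bean1 part 7 (0.345, adjusted p = 0.643) and Tmem181c-ps part 5 (0.389, adjusted p = 0.622) were higher in homozygous than in heterozygous libraries without passing.

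Exons of NMD transcripts had a median PSI of 0.140, 0.119 and 0.129 in homozygous libraries, 0.110, 0.109 and 0.0974 in heterozygous libraries, and 0.110, 0.112 and 0.114 in wild-type libraries. The homozygous medians were the highest 3, by a small margin. The same order held for exons annotated only as first or last, at 0.160, 0.165 and 0.153 in homozygous libraries, 0.143, 0.148 and 0.140 in heterozygous libraries, and 0.141, 0.143 and 0.144 in wild-type libraries. No NMD exon was called in any comparison by limma or by edgeR. In homozygous against wild-type libraries 13 of the 132 had an unadjusted p under 0.05 (9.85%, against 7.69% of all parts). The groups did not overlap in 26 (19.7%, against 12.4% of all parts), 18 higher and 8 lower in homozygous libraries. Most NMD exons had a low PSI. Among other fitted parts outside Ttn with a mean PSI of 0.05 to 0.2, 16.5% did not overlap, and 12.9% were higher without overlap. The median difference of the NMD exons was 0.0161. Heterozygous and wild-type libraries did not overlap in 7 NMD exons (5.30%, against 8.47%).

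The small upward difference was shared by low-PSI parts in general. Among the 971 exons of the set with a mean PSI under 0.2, the median was 0.0970, 0.0968 and 0.0926 in homozygous libraries, 0.0855, 0.0820 and 0.0812 in heterozygous libraries, and 0.0812, 0.0837 and 0.0873 in wild-type libraries. Over 11094 other fitted parts outside Ttn at that level it was 0.106, 0.0916 and 0.101 in homozygous libraries, 0.0846, 0.0851 and 0.0846 in heterozygous libraries, and 0.0823, 0.0882 and 0.0907 in wild-type libraries. The median homozygous minus wild-type difference was 0.00973 in the frame-shifting exons and 0.0123 in the other parts. At a mean PSI over 0.8 it was −0.00465 in 1085 frame-shifting exons and −0.00261 in 7492 other parts.

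**Figure D3:**
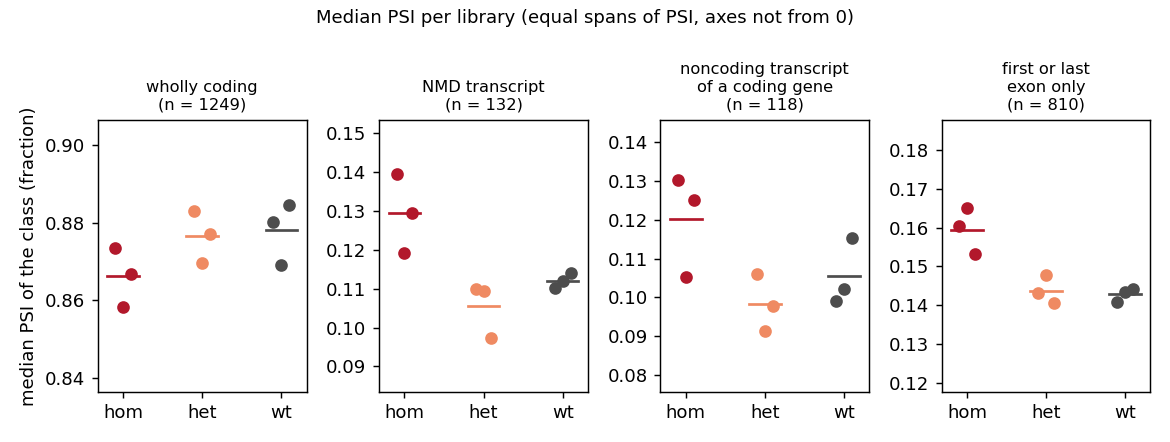
Median PSI of each class (y axis, fraction, not from 0 but with equal spans) in each library, in 3 homozygous (hom), 3 heterozygous (het) and 3 wild-type (wt) libraries, with lines at the mean. For NMD exons the homozygous medians (0.119 to 0.140) lie above the wild-type ones (0.110 to 0.114), and for first or last exons 0.153 to 0.165 lies above 0.141 to 0.144.

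The regulators of splicing were taken as given lists. Of 42 SR and hnRNP genes, 10 had 11 such exons, and of 64 genes of the core spliceosome and other regulators, 19 had 27. None was called in any comparison. Hnrnpl, a repressor and activator of many exons, had a PSI of 0.307, 0.256 and 0.314 in homozygous libraries, 0.276, 0.244 and 0.226 in heterozygous libraries, and 0.240, 0.216 and 0.230 in wild-type libraries at its stop-bearing part 22. Homozygous and wild-type libraries did not overlap, but the difference of 0.0635 (SE 0.0288) had a limma adjusted p of 0.663. The stop-bearing exon of its relative Hnrnpll had a PSI of 0.274, 0.206 and 0.130 in homozygous libraries, 0.154, 0.154 and 0.20 in heterozygous libraries, and 0.192, 0.246 and 0.166 in wild-type libraries. The groups overlapped throughout (difference 0.00166, SE 0.0389). Hnrnpu, a nuclear scaffold hnRNP, had a PSI of 0.0892, 0.0676 and 0.101 in homozygous libraries, 0.0648, 0.0606 and 0.0605 in heterozygous libraries, and 0.0536, 0.0621 and 0.0576 in wild-type libraries at part 28, annotated as a first or last exon. Ewsr1, an RNA-binding protein of the FET family, had a PSI of 0.221, 0.184 and 0.267 in homozygous libraries, 0.221, 0.169 and 0.177 in heterozygous libraries, and 0.154, 0.161 and 0.181 in wild-type libraries at part 23, likewise at a transcript end. In both genes homozygous and wild-type libraries did not overlap, and the differences of 0.0280 and 0.0588 had adjusted p-values of 0.658 and 0.680.

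Celf2, an RNA-binding regulator of heart and muscle exons, has a 41-base exon in an NMD transcript. Its PSI was 0.161, 0.202 and 0.149 in homozygous libraries, 0.0580, 0.0973 and 0.0932 in heterozygous libraries, and 0.0673, 0.148 and 0.0654 in wild-type libraries. Homozygous libraries were just above wild-type library 2 and well above the rest (difference 0.0771, SE 0.0268, limma adjusted p = 0.533). In Prpf38b, a spliceosome component, part 9 lies after the stop of an NMD transcript. Its PSI was 0.323, 0.424 and 0.331 in homozygous libraries, 0.190, 0.220 and 0.245 in heterozygous libraries, and 0.154, 0.271 and 0.308 in wild-type libraries. The homozygous libraries were again highest, without passing the test (difference 0.115, adjusted p = 0.621).

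Rbm20 itself has a frame-shifting exon of 46 bases in an NMD transcript, part 15. The PSI was 0.0868, 0.0670 and 0.0752 in homozygous libraries, 0.0659, 0.0614 and 0.0289 in heterozygous libraries, and 0.0399, 0.0266 and 0.0483 in wild-type libraries. All 3 homozygous libraries were above all wild-type ones, in a gene whose own reads were lower in homozygous hearts. The difference was 0.0380 (SE 0.0139) with a limma adjusted p of 0.564, from 279 to 833 reads a library.

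In the other exons of listed regulators, homozygous and wild-type libraries overlapped and no difference passed the test. In comparisons with heterozygous libraries some did not overlap, such as Dyrk1a part 5 and Hnrnpl part 4, without being called. U2af1, the small subunit of the 3′ splice site factor, has a 67-base coding exon, part 11, and a 40-base exon of an NMD transcript, part 12. Part 11 averaged a PSI of 0.842 in homozygous, 0.854 in heterozygous and 0.835 in wild-type libraries. Part 12 averaged 0.126, 0.115 and 0.112 in the same groups, and no difference between homozygous and wild type exceeded 0.0141. The stop-bearing exon of Rbm39 averaged 0.0631 in homozygous, 0.0720 in heterozygous and 0.0586 in wild-type libraries. Srsf9 part 5 averaged 0.140, 0.131 and 0.157, and both Luc7l2 exons differed between homozygous and wild type by less than their standard errors. Rbfox2 part 15 had a PSI of 0.703, 0.737 and 0.623 in homozygous libraries, 0.733, 0.671 and 0.741 in heterozygous libraries, and 0.679, 0.669 and 0.722 in wild-type libraries. Rbfox2 part 16, a 40-base exon, averaged 0.269, 0.243 and 0.286 in the 3 groups. Rbfox2 and Rbfox1 proteins regulate muscle exons, and Rbfox1 has a 43-base exon at 0.853 in homozygous, 0.855 in heterozygous and 0.880 in wild-type libraries on average. The smallest limma adjusted p among these exons in homozygous against wild type was 0.854.

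**Figure D4:**
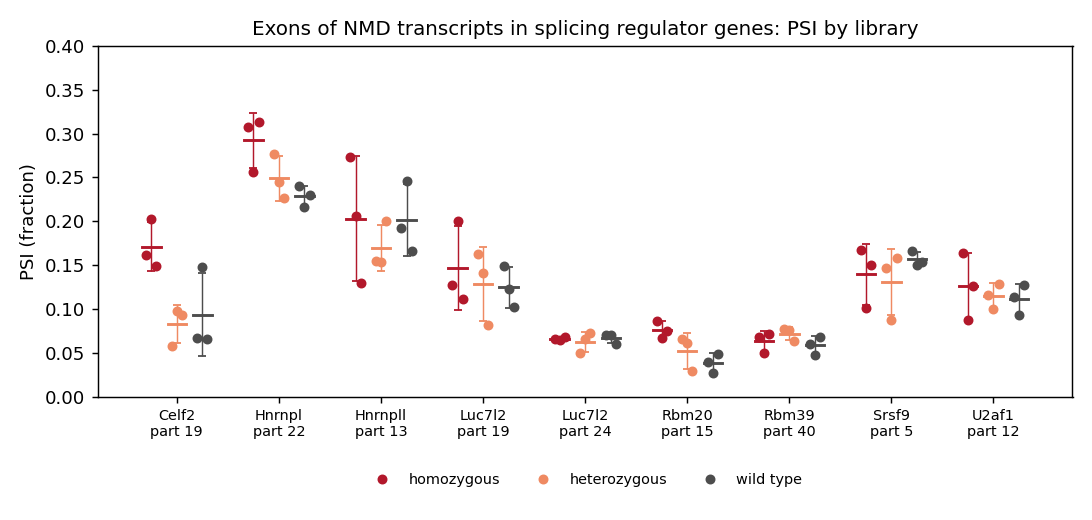
PSI (y axis, fraction) of exons of NMD transcripts in splicing regulator genes, 1 point per library, with bars for the mean and SD of the 3 homozygous, 3 heterozygous and 3 wild-type libraries. Homozygous libraries lie above wild type in Celf2 part 19, Hnrnpl part 22 and Rbm20 part 15, and overlap wild type in the other exons; none was called.

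Of 33 listed RBM20 targets, 6 had a frame-shifting exon of this kind, with 14 exons in all. None was called, and the median homozygous minus wild-type difference was 0.0312, against 0.00346 over all parts. The median mean PSI of the 14 exons was 0.144. Among other fitted parts outside Ttn with a mean PSI of 0.05 to 0.2, the median difference was 0.0123. Of the 14 exons, 7 were in Myh7. Pdlim3, a Z-disc protein, had a PSI of 0.788, 0.784 and 0.785 in homozygous libraries, 0.614, 0.823 and 0.871 in heterozygous libraries, and 0.867, 0.881 and 0.870 in wild-type libraries at its 188-base part 7. Homozygous libraries were below wild type in each case, with a difference of −0.0868 (SE 0.0603, limma adjusted p = 0.749). The wide heterozygous spread enters this standard error. Pdlim3 itself was higher in homozygous than in wild-type libraries (log2 fold change 0.69, edgeR adjusted p = 0.0245).

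Sarcomere and ion-handling genes held 44 of the exons, in 17 of 63 listed genes. None was called, and the median difference was 0.0148, against 0.00346 over all parts. The median mean PSI of the 44 exons was 0.277, and all parts were not matched to that level. The homozygous and wild-type libraries did not overlap in 6 of the 44, where 12.4% of all parts did not. Synpo2l encodes a Z-disc protein that binds actin. Its 178-base part 4, annotated as a first exon, had a PSI of 0.156, 0.290 and 0.264 in homozygous libraries, 0.107, 0.132 and 0.111 in heterozygous libraries, and 0.0939, 0.0941 and 0.111 in wild-type libraries. Homozygous libraries were highest (difference 0.137, SE 0.0328, limma adjusted p = 0.260, and 0.00706 without homozygous library 1). The gene rose as well, by a log2 fold change of 1.58 (edgeR adjusted p = 0.00492). Fhl1, a LIM protein of the sarcomere linked to stretch sensing, has a 200-base coding exon, part 21. Its PSI was 0.156, 0.209 and 0.20 in homozygous libraries, 0.103, 0.112 and 0.0969 in heterozygous libraries, and 0.114, 0.109 and 0.142 in wild-type libraries. The homozygous libraries were highest here too (difference 0.0670, adjusted p = 0.423), in a gene that rose by a log2 fold change of 1.42 (edgeR adjusted p = 0.00276). In Kcnq1, a potassium channel subunit, the 47-base part 22 had a PSI of 0.947, 0.955 and 0.932 in homozygous libraries, 0.959, 0.982 and 0.956 in heterozygous libraries, and 0.917, 0.929 and 0.920 in wild-type libraries. Its wild-type libraries were lowest (homozygous minus wild type 0.0225, adjusted p = 0.749).

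Of the exons in these lists, 26 lie in the neighbouring myosin heavy chain genes Myh6 and Myh7, the fast and slow cardiac motors. These genes are alike in sequence, so junction reads may join or be split between them. Myh6 had 19 exons in parts 14 to 44, whose mean PSI ran between 0.851 and 0.238 on 161503 to 322173 median reads. Their homozygous minus wild-type differences ran between −0.0532 and 0.0422 (smallest limma adjusted p = 0.777). The outermost part 55 of Myh6 had 118751, 92856 and 174485 exclusion reads in homozygous libraries, 118720, 138431 and 177070 in heterozygous libraries, and 106181, 170389 and 201457 in wild-type libraries. A part at the end of a gene can be skipped only by a junction that leaves the gene, so these reads are not skipping of an exon within Myh6. In Myh7, part 15 had a PSI of 0.0622, 0.132 and 0.0787 in homozygous libraries, 0.0673, 0.0590 and 0.0474 in heterozygous libraries, and 0.0429, 0.0248 and 0.0460 in wild-type libraries. Homozygous and wild-type libraries did not overlap (difference 0.0531, adjusted p = 0.536). At part 44 it had a PSI of 0.445, 0.370 and 0.377 in homozygous libraries, 0.301, 0.323 and 0.338 in heterozygous libraries, and 0.355, 0.282 and 0.304 in wild-type libraries, again with homozygous above wild type (difference 0.0838, adjusted p = 0.669). Over the 7 Myh7 exons the difference between the homozygous and wild-type means was 0.0191 to 0.0884. None passed the test, and the libraries overlapped in all but 2. The summed Myh7 reads gave a log2 fold change of 0.94 (edgeR adjusted p = 0.00442), but −0.10 (adjusted p = 0.795) when only parts with a PSI of at least 0.95 were summed.

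NMD and exon junction factors were little represented, with 8 exons in 6 of 27 listed genes, and none was called. Their median homozygous minus wild-type difference was −0.00915, and homozygous and wild-type libraries overlapped in all 8. Dhx34, a helicase of the NMD pathway, had a PSI of 0.921, 1 and 0.778 in homozygous libraries, 1, 0.859 and 0.934 in heterozygous libraries, and 0.965, 0.970 and 0.940 in wild-type libraries at its 175-base part 17. The single low value was homozygous library 3. Smg5, an NMD factor, had a PSI of 0.0705, 0.0504 and 0.0355 in homozygous libraries, 0.0555, 0.0692 and 0.0514 in heterozygous libraries, and 0.0487, 0.0786 and 0.0849 in wild-type libraries at part 4. Pym1, which takes exon junction complexes apart, had a PSI of 0.147, 0.142 and 0.129 in homozygous libraries, 0.138, 0.125 and 0.0644 in heterozygous libraries, and 0.179, 0.0835 and 0.0495 in wild-type libraries at part 4. The differences were −0.0186 (SE 0.0149, limma adjusted p = 0.749) in Smg5 and 0.0353 (SE 0.0338, adjusted p = 0.756) in Pym1. Over the 91 exons in any of the lists, limma called 0 in each comparison, and edgeR on the reads called 0. An unadjusted limma p under 0.05 was reached by 6 of the 91 in homozygous against wild type, where 7.69% of all parts reached it. It was reached by 2 in heterozygous against wild type (4.04% of all parts) and by 6 in homozygous against heterozygous (6.93% of all parts).

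The genes that carry these exons were also compared by expression, with the exons themselves left out of the sums. Between homozygous and wild-type libraries, 142 of 2152 tested genes passed (edgeR, adjusted p under 0.05), 62 higher and 80 lower. That is 6.60%, against 4.3% of all 22048 genes tested, of which 1.84% were higher and 2.46% lower. The 142 became 46 and 50 without homozygous library 2 or 3, 71, 44 and 43 without wild-type library 1, 2 or 3, and 338 with DESeq2. The genes of the set were also more abundant, with a median of 13.2 CPM against 3.30 CPM over all genes, and the part of abundance in the share was not tested. Heterozygous and wild-type libraries gave 0 genes by edgeR (0% of all genes) and 2 by DESeq2. An unadjusted edgeR p under 0.05 was reached by 66 of the 2152 genes, and by 709 of all 22048 genes tested. Homozygous and heterozygous libraries gave 24 (1.12%, against 0.916%), 17 higher and 7 lower, where 0.494% of all genes were higher and 0.422% lower. The 24 became 9 and 6 without homozygous library 2 or 3, and 8, 45 and 12 without heterozygous library 1, 2 or 3. With replicate number as a block they became 63.

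Inclusion and gene expression were then set side by side for the 146 exons whose homozygous and wild-type libraries did not overlap and differed by at least 0.1. Of the 89 with higher inclusion in homozygous hearts, the gene was higher in 39 and lower in 50, with 3 called higher and 3 called lower. Of the 57 with lower inclusion, the gene was higher in 23 and lower in 34, with 6 called higher and 2 called lower. The median log2 fold change of the gene was −0.02 beside higher inclusion and −0.08 beside lower inclusion, and the difference between them was not tested. Among coding exons, 39 were higher and 20 lower, with the gene higher in 18 and 6 of these.

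A called gene lay behind 14 of the 146 exons, a count in which a gene with several exons can enter more than once. Counted once per gene, 4.3% of all genes tested and 6.60% of the genes of the set were called. Hdnr, a noncoding RNA gene, had a PSI of 0.323, 0.188 and 0.0675 in homozygous libraries, 0.518, 0.676 and 0.723 in heterozygous libraries, and 0.410, 0.884 and 0.776 in wild-type libraries at its 65-base part 24. The homozygous libraries were lowest (homozygous minus wild type −0.497, limma adjusted p = 0.291), from 12 to 53 reads a library. The gene rose by a log2 fold change of 0.64 (edgeR adjusted p = 0.00841). Inclusion was lower and the gene higher also in 9330179D12Rik (PSI difference −0.407, log2 fold change 1.82, edgeR adjusted p = 0.0335). Gnao1, a G protein alpha subunit, had the same directions (−0.169, log2 fold change 1.27, edgeR adjusted p = 0.00620). In Ces1d the PSI of part 16 was higher (0.384) and the gene fell (log2 fold change −1.01, edgeR adjusted p = 0.00691). Ces1e had the same directions (0.620, log2 fold change −1.95, edgeR adjusted p = 0.0458). The calls on 9330179D12Rik and Ces1e were each lost when certain single libraries were left out, with adjusted p up to 0.126 and 0.152. Cryab, a small heat shock protein of heart muscle, had both higher (0.195, log2 fold change 0.62, edgeR adjusted p = 0.0211). None of these PSI differences passed the PSI test.

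**Figure D5:**
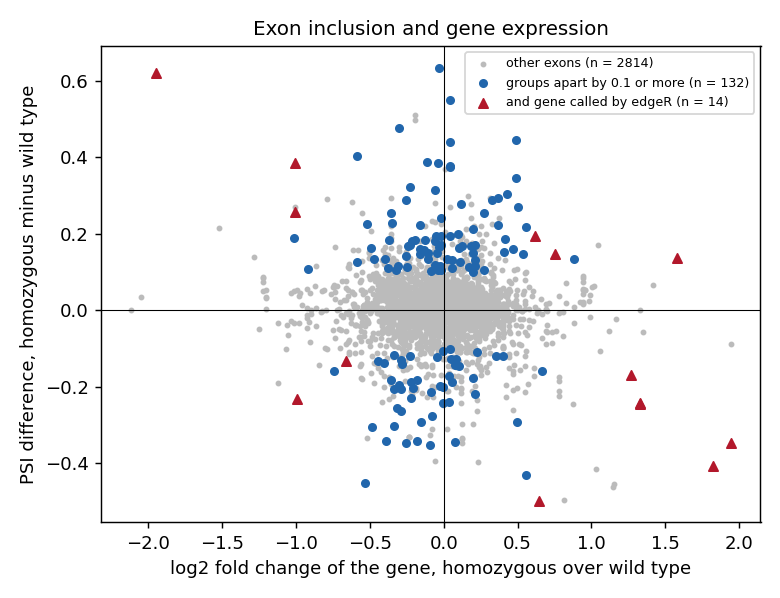
PSI difference of each exon (y axis, homozygous minus wild type, fraction) against the log2 fold change of its gene without the exon (x axis, homozygous over wild type); grey points are other exons, blue points are exons whose groups did not overlap and differed by at least 0.1, and red triangles are those whose gene was also called by edgeR. The blue points and triangles lie on both sides of 0 on both axes: of 89 with higher PSI, the gene was higher in 39 and lower in 50.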

How the data were processed

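Total RNA from mouse hearts was sequenced from stranded libraries as paired reads of 150 bases, per the labels' protocols. The authors deposited inclusion and exclusion read counts, a PSI fraction and position values for each exonic part, per the file headers. Cutadapt 1.8, Salmon 1.2.1 and build GRCm39 are named in the submitters' processing notes, without roles, and the program that counted the parts is not given in the sources used here. Other numeric columns deposited by the authors, in units of score or other (the length and positions of parts), served only to apply the selection rule. PSI was recomputed from inclusion reads per base of the part's length plus 148 and from exclusion reads per 148 bases, and differed from the deposited PSI by at most 5.0e-07.

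Deposited PSI was tested with limma 3.58.1 (variance trend, 9 libraries, 3 groups) over 55648 parts with at least 10 reads in each library, a PSI of at least 0.05 in some library, and one of at most 0.95 in some library. A call needed a difference of 0.1 or more at an adjusted p (Benjamini-Hochberg) below 0.05. Inclusion counts were summed per gene identifier without the exons of the set and tested with edgeR 4.0.16 (TMM, quasi-likelihood, 22048 genes). A read that spans several parts can be counted in each, so these sums are not numbers of fragments. DESeq2 1.42.0 was an alternative. In expression, the deviations of same-numbered homozygous and heterozygous libraries had correlations of 0.139, 0.594 and 0.270. Differently numbered libraries reached 0.241 (homozygous 1 with heterozygous 3) and 0.419 (homozygous 2 with wild type 1). These values do not establish a pairing, and the labels describe none. The blocked count is given beside that comparison. The scripts were tested on simulated data and ran in R 4.3.3 and Python 3.11.15. Reads per exon and library had a median of 115, and counts near 10 give coarse PSI values.

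Exon classes, frames and sequences came from GENCODE M21, whose build differs (GRCm38), by gene identifier, exact length and distance to neighbouring exons, and no coordinate was taken from it. The selection rule, the gene lists and the tests were chosen with earlier results of these data known. Named were every exon called in a comparison, the 10 largest non-overlapping differences of each comparison (1 per gene), the 3 list members with the smallest p, and the exons at the edges of the rule. An exon that this rule selects is not reported here. Further list members were named after their values were seen, among them exons of splicing regulators, Pdlim3 and Kcnq1. So were the genes with whole-gene reads and the exons set beside called genes. Alternatives were other read minimums, scales, filters, thresholds and fits, and leaving out each library.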

Additional observations from a re-analysis of the deposited data

How the results depend on the processing

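The count of exons called moved with most settings, and few of the calls lie far from the threshold. For homozygous against wild type, where 4 were called, the count was 7 with at least 5 reads, 1 with edgeR on the reads, 2 with library number as a covariate, 2 on the log2 odds scale, 1 without the filter on constant parts, 2 with only the 2 groups compared, 2 at a difference of 0.2, 2 at a mean PSI of 0.1 to 0.9, and 2 to 10 with a library left out. For heterozygous against wild type, where 2 were called, it was 1 with at least 20 reads, 0 with edgeR, 1 with library number, 0 on the log2 odds scale, 1 without the filter, 0 with only the 2 groups, 1 at a difference of 0.2, 1 in the narrower PSI range, and 0 to 3 with a library left out. For homozygous against heterozygous, where 2 were called, it was 0 with edgeR, 0 with library number, 0 without the filter, 1 with only the 2 groups, 0 at a difference of 0.2, 0 in the narrower PSI range, and 0 to 7 with a library left out. Genes called numbered 142 in homozygous against wild type, and 338 with DESeq2, 42 with library number, 313 without a filter on low counts and 43 to 179 with a library left out. In heterozygous against wild type 0 became 2 with DESeq2, 5 without a filter and 0 to 0 with a library left out. In homozygous against heterozygous 24 became 125 with DESeq2, 128 without a filter, 11 with only the 2 groups and 6 to 45 with a library left out. The causes were not tested. Leaving out exons jumped with their whole gene, an alternative chosen after seeing the data, gave 4, 2 and 2.

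Same-numbered libraries did not deviate together in PSI, with correlations of −0.00929 to 0.0365. In expression they ran between −0.236 and 0.295 in pairs with a wild-type library. With replicate number as a block the exons called were 2, 0 and 0, and the genes 306, 0 and 63, in homozygous against wild type, heterozygous against wild type, and homozygous against heterozygous. Not every library correlated best with its own number.

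Of the differences of single exons recomputed under these settings, 922 kept their side of the threshold and direction, 91 lost the call, 9 gained it and 2 turned round. The 2 that turned round were Dhx34 part 17 with a library left out (−0.108 to 0.00239, positive without homozygous library 3) and Pym1 part 4 with library number as a covariate (−0.0248). Of log2 fold changes, 238 kept, 12 lost, 2 gained and 2 turned round, which were Ccdc173 in heterozygous against wild type (−0.078) and Myh7 in homozygous against wild type (−0.10), each with only parts of PSI at least 0.95. An exon outside a narrower range of PSI or length gave no value there. Of the exons, 756 had under 30 reads in 1 library or more, which limits the precision of their PSI.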

Other observations

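Other exons of NMD transcripts whose homozygous and wild-type libraries did not overlap, chosen here after their values were seen, were higher in homozygous libraries in Colgalt2 part 11, Cxadr part 13, Recql5 part 18, Scamp5 part 10 and Dis3 part 29. Colgalt2, a collagen galactosyltransferase, averaged a PSI of 0.213 in homozygous, 0.115 in heterozygous and 0.0780 in wild-type libraries (limma adjusted p = 0.261). Cxadr, a cell adhesion protein of the intercalated disc, averaged 0.208 in homozygous, 0.131 in heterozygous and 0.120 in wild-type libraries (adjusted p = 0.293). Dis3, a catalytic subunit of the RNA exosome, averaged 0.306, 0.129 and 0.172 in the same groups (adjusted p = 0.630). Max, the dimerisation partner of MYC, went the other way, at 0.295 in homozygous, 0.351 in heterozygous and 0.383 in wild-type libraries for its 85-base part 6 (adjusted p = 0.564). None passed the test.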
